A study of Mus musculus with 4 samples.

Results

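Chromatin accessibility was examined at genes that position hematopoietic stem cells in their niche: integrins, chemokine and sphingosine-1-phosphate (S1P) receptors, counter-receptors, junction proteins, cytoskeletal linkers, laminins and guidance receptors. A list of 55 gene names was matched to the gene name that each peak carries in the deposited table of differential ATAC-Seq peaks. In all, 21 of the 5332 peaks carried 1 of these names, and 16 of the 55 names had at least 1 peak. The table was cut by the authors to peaks that passed their test between genotypes (FDR under 0.05), so every peak in it had already been chosen for a difference. The paper reports more peaks at this threshold than the table holds, so the table may not be the full set. A gene without a peak here has no deposited differential peak. This does not show that its chromatin was unchanged and says nothing of whether it was open.

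ATAC-Seq marks open chromatin by the insertion of a transposase. It was performed on long-term hematopoietic stem cells (LT-HSCs, sorted as L-S+K+Flk2-CD48-CD150+) from bone marrow of C57BL/6 mice kept without challenge. There were 2 Sin3B+/+ and 2 Sin3B-/- libraries, each a pool of cells from 2 mice. Sin3B is a scaffold of a corepressor complex that carries histone deacetylases. Sin3B-/- mice had floxed Sin3B alleles and Vav1-iCre, a Cre driven by Vav1 regulatory sequence that is active throughout the blood lineage from fetal life, so the deletion is meant to precede adult marrow. The study's methods give equal numbers of males and females for experiments in general, and the controls of this assay are named both Sin3B+/+ and Sin3B F/F, that is with floxed alleles and no mention of Cre. The age of these mice is not given in the sources used here.

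Values are levels, meaning reads in a peak multiplied by 1 factor per library. Over the table the levels summed to 1657641 to 1986378 per Sin3B+/+ library and to 2837467 to 3102888 per Sin3B-/- library. Counted in the smallest step between values, these sums would stand for 4836132 to 8705855 and 3102888 to 4541377 reads. That a step is 1 read is an inference from the values that was not settled, so read numbers here are approximate and entered no test, and how deeply the libraries were sequenced in all is unknown. The table had no peak at Sin3b, and the nearest lay 67909 bases away, so the deletion could not be checked. Peaks were listed for 3 of 10 LT-HSC markers (Slamf1, Procr and Fgd5), 0 of 9 markers used to sort cells away, 1 of 4 mature myeloid markers (Csf1r), 0 of 4 B cell, 0 of 4 T cell and 0 of 5 endothelial or stromal markers. Erythroid and megakaryocyte genes had peaks for 2 of 3 each (Klf1 and Hbb-bt, Pf4 and Itga2b). A listed peak is a difference and not expression, so these counts do not measure purity.

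As background, stem cells are held in bone marrow by integrins that bind Vcam1, fibronectin and laminins, and by the chemokine Cxcl12 acting on Cxcr4. S1P gradients draw cells into the blood through their own receptors. Integrins rest in a bent state until talin and kindlin bind the tail of the beta subunit inside the cell, and focal adhesion kinases then pass the signal on. Eph receptors and ephrins act between touching cells, mostly as a repulsive cue.

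Fermt3, Ephb4, Lama2 and Tln2 held the 5 peaks called relative to the shift common to the table, which is described after the sequences. For the 3 losses that call was fixed in advance, since the measure enlarges every loss. The sequence around the 5 peaks is shown first. Capitals mark matches, on either strand, to short core motifs of factor families: RUNX (TGTGGT), the family of GATA factors (AGATAA), ETS (CCGGAAG), SP/KLF (GGGCGG), CTCF (CNAGGNGGC) and the E-box (CACGTG). Each run is 5′ to 3′ on the strand of the gene, in GRCm38. The Fermt3 and Ephb4 start sequences are the 250 bases before the start and are part of the promoter entries of RefSeq, and the others are the central 300 bases of a peak. No run overlaps an annotated exon.
Fermt3 before the start, chr19:7019470-7019719, minus strand: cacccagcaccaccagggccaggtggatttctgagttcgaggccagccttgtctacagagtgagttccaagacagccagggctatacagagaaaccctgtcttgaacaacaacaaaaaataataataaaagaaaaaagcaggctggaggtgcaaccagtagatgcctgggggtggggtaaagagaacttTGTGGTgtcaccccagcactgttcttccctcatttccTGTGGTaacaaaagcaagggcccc
Fermt3 intron 2, chr19:7018146-7018445, minus strand: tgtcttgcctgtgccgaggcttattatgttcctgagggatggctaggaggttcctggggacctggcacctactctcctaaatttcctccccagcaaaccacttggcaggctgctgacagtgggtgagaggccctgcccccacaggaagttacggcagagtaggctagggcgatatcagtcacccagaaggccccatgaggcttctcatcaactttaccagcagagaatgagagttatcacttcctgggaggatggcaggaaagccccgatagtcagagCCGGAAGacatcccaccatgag
Ephb4 before the start, chr5:137349859-137350108, plus strand: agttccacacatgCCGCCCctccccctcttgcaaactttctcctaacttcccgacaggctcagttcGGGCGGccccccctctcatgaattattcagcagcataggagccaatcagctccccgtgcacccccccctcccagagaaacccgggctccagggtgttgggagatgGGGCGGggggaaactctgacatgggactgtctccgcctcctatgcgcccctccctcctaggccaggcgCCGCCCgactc
Lama2 intron 13, chr10:27265806-27266105, minus strand: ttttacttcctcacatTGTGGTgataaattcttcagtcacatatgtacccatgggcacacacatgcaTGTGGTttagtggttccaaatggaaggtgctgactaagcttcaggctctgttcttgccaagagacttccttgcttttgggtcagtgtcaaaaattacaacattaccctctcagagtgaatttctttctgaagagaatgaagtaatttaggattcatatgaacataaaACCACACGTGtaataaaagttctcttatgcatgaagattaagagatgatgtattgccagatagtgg
Tln2 intron 1, chr9:67550179-67550478, minus strand: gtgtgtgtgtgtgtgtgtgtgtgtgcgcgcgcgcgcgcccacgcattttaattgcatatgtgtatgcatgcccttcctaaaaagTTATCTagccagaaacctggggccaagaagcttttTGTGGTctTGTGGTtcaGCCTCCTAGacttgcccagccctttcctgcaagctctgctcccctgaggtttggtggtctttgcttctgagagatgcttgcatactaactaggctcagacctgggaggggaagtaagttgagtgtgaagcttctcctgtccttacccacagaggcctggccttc
Before the Fermt3 start there were 2 RUNX matches, and its intron peak held 1 ETS match. The Ephb4 run had 4 SP/KLF matches and a GC content of 64.0%. The Lama2 run, with a GC content of 38.3%, had 3 RUNX matches and 1 E-box match that overlaps the last of them. Tln2 had 2 RUNX matches, 1 GATA and 1 CTCF match. A match of this kind is a description of letters and not of a bound factor.

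Over the whole set, 18 peaks were higher in Sin3B-/- LT-HSCs and 3 were lower. limma on log2(level + 1) over the table, with Benjamini-Hochberg adjustment over all 5332 peaks, called each of them. The same fit called 95.7% of all peaks higher and 4.29% lower. That nearly every peak was called follows from the authors' selection, so these calls are a description and not independent evidence. The source of the split between higher and lower was not tested. The median difference was 0.76 log2 units in the set and 0.76 in the table. The selection favours peaks where the levels of the genotypes do not overlap throughout the table, where their share was not counted. Such a separation at a peak below is therefore no trait of the set.

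The gain was shared by most of the table, which holds only peaks chosen for a difference. Its median is therefore that of chosen peaks and not of all accessible sites. The median level was 213.56 and 179.61 for the Sin3B+/+ libraries against 318.65 and 343 for those of Sin3B-/-, a shift of 0.75 log2 units. Each difference is therefore given both ways, as scaled by the authors and after each library was centred on its own table median, which measures a peak relative to the others. After centring, 7.84% of all peaks were called higher and 4.82% lower. In the set, 2 peaks were then called higher, both at Fermt3, 3 were called lower, at Lama2, Tln2 and Ephb4, and 16 were not called. These 16 had centred differences of -0.22 to 0.34 (adjusted p of 0.164 to 0.975, limma), 9 above zero and 7 below. Centring takes nearly the same amount from every peak, so a gain smaller than the shift falls below zero by construction, and none of these 7 differed from the shift by the test. They lay at Itga4, Itgb7, Tln1 and Ptk2b, and at the Cxcr5 intron, the Cd47 intron and the middle Adgrg1 peak. Centring likewise enlarges every loss, and 100% of the losses in the table kept their call. The centred calls at Lama2, Tln2 and Ephb4 were therefore fixed in advance and do not set them apart. Whether the shift is a property of the cells, of the scaling or of the authors' selection was not tested. Cells with the site open and the degree of opening per cell cannot be told apart in pooled cells.

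**Figure D1:**
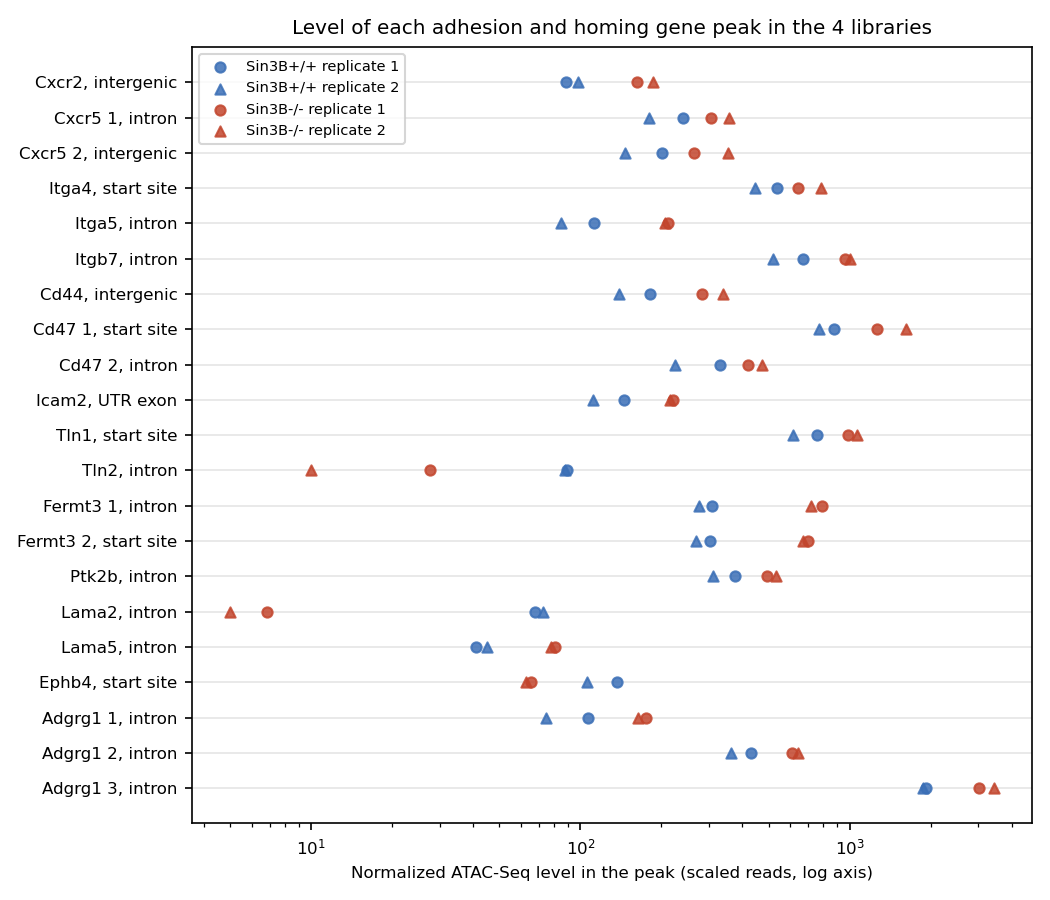
Level of each of the 21 peaks (scaled reads, log axis) in the 2 Sin3B+/+ libraries (blue) and the 2 Sin3B-/- libraries (red), with circles for replicate 1 and triangles for replicate 2. Sin3B-/- points lie to the right in 18 peaks and to the left at Lama2, Tln2 and Ephb4. Of the 18, 7 were smaller than the shift of the table and fall below zero when libraries are centred, none of them called.

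**Figure D2:**
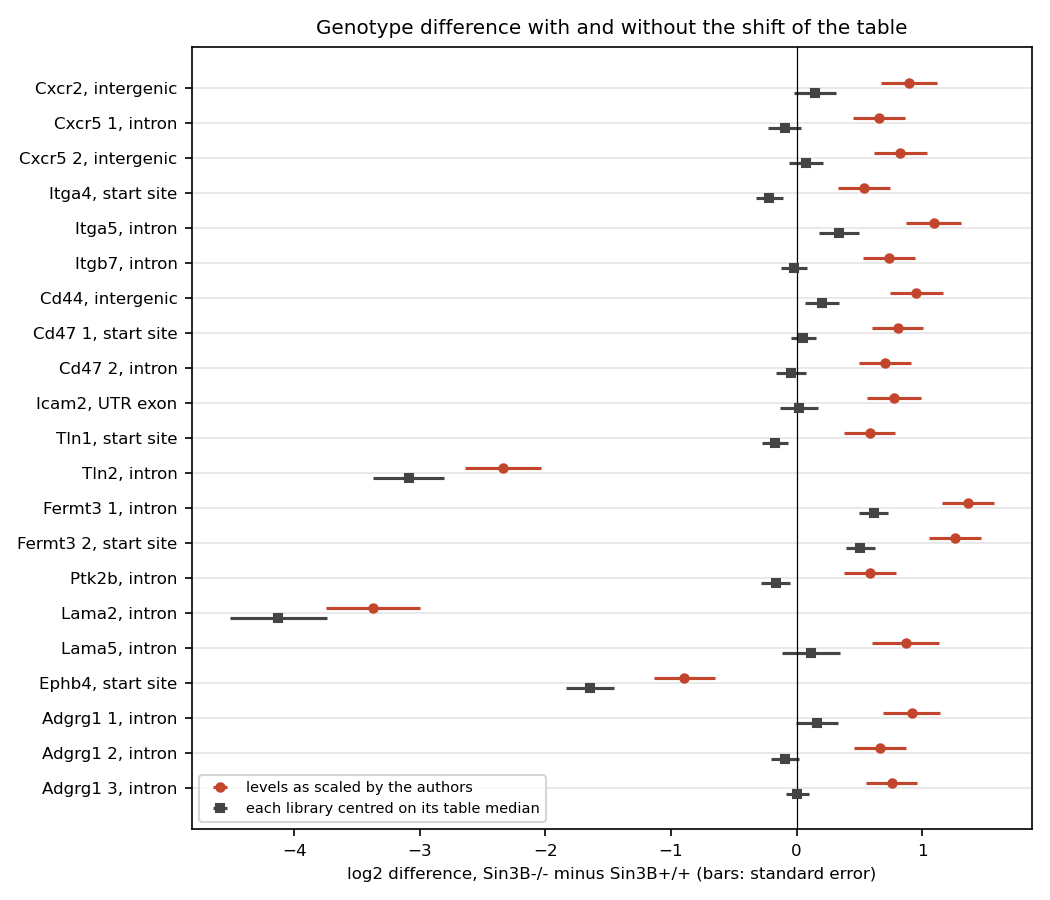
Difference in log2(level + 1), Sin3B-/- minus Sin3B+/+, for each peak, as scaled by the authors (red circles) and after centring each library on its table median (grey squares), with standard errors as bars. The centred differences of 16 peaks lie from -0.22 to 0.34, while Fermt3, Lama2, Tln2 and Ephb4 stay away from zero. Centring enlarges a loss by construction.

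The list held 7 linkers and kinases that tie integrins to actin, and 4 of them had peaks. Fermt3 encodes kindlin-3, the blood cell kindlin that binds integrin beta tails and is needed to activate them. The Fermt3 start peak (chr19:7019129-7019759), which covers exon 1, had levels of 302.78 and 269.07 in Sin3B+/+ against 697.91 and 672 in Sin3B-/-. The intron 2 peak (chr19:7017774-7018819) had 307.80 and 275.92 against 786.63 and 720. Both Sin3B-/- libraries stood well above both Sin3B+/+ libraries at each site, with little spread within a genotype. The differences were 1.26 ± 0.21 (SE, n = 2 libraries per genotype, limma adjusted p = 2.2e-08) and 1.37 ± 0.21 (adjusted p = 1.1e-09). Here and below, the standard error comes from the spread that all peaks share at a level, not from the peak's own libraries. Relative to the shift they were 0.51 (adjusted p = 0.00015) and 0.61 (adjusted p = 1.2e-06). Even so, 474 and 326 peaks of the table had a larger gain than the start and the intron peak.

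Another peak lies 920 bases upstream of the Fermt3 start but carries the name of its neighbour Stip1 (chr19:7020140-7020638). Its levels were 147.40 and 128.19 in Sin3B+/+ against 305.53 and 293 in Sin3B-/-, a difference of 1.12 ± 0.21 and of 0.36 after centring (adjusted p = 0.070, limma). The 6 other table peaks within 100000 bases of the Fermt3 start peak, the intron and Stip1 peaks among them, were all higher in Sin3B-/- as scaled. So were 95.7% of all table peaks.

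Talins link the integrin tail to actin. Tln2, the less widely used talin gene, had its peak (chr9:67550089-67550570) in intron 1 of 57, 9374 bases past the start. Levels were 88.98 and 87.75 in Sin3B+/+ against 27.49 and 10 in Sin3B-/-. The Sin3B+/+ libraries were nearly equal, whereas the Sin3B-/- libraries were both low but far apart. The mean was 4.71-fold lower in Sin3B-/-, and the difference was -2.34 ± 0.30 (limma adjusted p = 1.2e-12), or -3.09 relative to the shift. The standard error and p-value use the shared spread and do not reflect the distance between the 2 Sin3B-/- libraries. Leaving out 1 library at a time gave -3.02 to -1.65. By the inferred step the low values stood for about 44 and 10 reads, and 15 peaks of the table lost more. No other table peak lay within 100000 bases.

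Tln1, the main talin of blood cells, went the other way as scaled. Its peak (chr4:43562069-43562811) covers a start region shared with Creb3, so it cannot be given to either gene alone. The levels 755.23 and 617.31 in Sin3B+/+ compared with 984.06 and 1064 in Sin3B-/-. The difference of 0.58 ± 0.20 (limma adjusted p = 0.0049) was smaller than the shift of the table and became -0.17 after centring. Ptk2b (Pyk2), a kinase related to focal adhesion kinase, had a peak in intron 1 of 30 (chr14:66218760-66219445) with 375.56 and 310.88 against 494.22 and 534. Its difference, 0.59 ± 0.21 (adjusted p = 0.0049, limma), also fell short of the shift, at -0.17 after centring. The calls at Tln1 and Ptk2b were lost with a replicate block. Leaving out 1 library at a time gave 0.44 to 0.73 at Tln1 and 0.45 to 0.72 at Ptk2b.

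Vcl (vinculin) and Ptk2 (focal adhesion kinase) had no peak under their own names. A peak named Ap3m1 lies in the overlap of the Vcl and Ap3m1 genes (chr14:21031979-21032718), with 125.49 and 78.84 in Sin3B+/+ against 266.17 and 207 in Sin3B-/-. It differed by 1.23 ± 0.22, and by 0.48 after centring (adjusted p = 0.020, limma).

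The laminins are trimers of the basement membrane on which integrins bind. Lama2, an alpha chain best known from muscle and nerve, carried the strongest loss of the set. The peak (chr10:27265665-27266247) is in intron 13 of 64, 353802 bases past the gene's start. Levels were 67.77 and 72.67 in Sin3B+/+ against 6.87 and 5 in Sin3B-/-, which left the genotypes far apart with close replicates. The mean was 11.8-fold lower, with a difference of -3.37 ± 0.37 (limma adjusted p = 3.0e-17), or -4.13 relative to the shift, and leaving out 1 library at a time gave -3.57 to -3.18. Only 1 peak of the table lost more. By the inferred step the Sin3B-/- values stood for about 11 and 5 reads, above the 3 steps taken as the floor, and the pseudocount understates such a change. Repeats made up 42.5% of the peak's bases, and no other table peak lay within 100000 bases.

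Lama5, the alpha chain of the laminins of the marrow vessels, had a peak in intron 6 of 78 (chr2:180202718-180203498). It rose as scaled, from 41.07 and 44.90 to 80.60 and 78, by 0.87 ± 0.27 (limma adjusted p = 0.0017). Relative to the shift the difference was 0.12 (adjusted p = 0.79). Lamc1 had no peak. The losses at Lama2 and Tln2 lay in introns of long genes. Lama2 and Tln2 had the lowest mean log2 levels of the set together with Lama5, but their means include the low Sin3B-/- values. In Sin3B+/+ alone the mean level was 70.2 at Lama2 and 88.4 at Tln2, above the 43.0 at Lama5.

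Among guidance and adhesion receptors, Ephb4 fell and Adgrg1 was higher only with the table. Ephb4 is a receptor tyrosine kinase for ephrin-B2 with known roles in vessels and in blood cell release from marrow. Its peak (chr5:137349480-137350486) is centred 126 bases before the start. Levels were 136.90 and 105.57 in Sin3B+/+ against 65.60 and 63 in Sin3B-/-, so that both Sin3B-/- libraries lay below both Sin3B+/+ libraries. The difference was -0.89 ± 0.24 (limma adjusted p = 0.00050), or -1.65 relative to the shift, and leaving out 1 library at a time gave -1.08 to -0.71. The 4 other table peaks within 100000 bases were all higher in Sin3B-/- as scaled, as were 95.7% of all table peaks. The Ephb4 peak was the only start-site peak of the set to fall, and 198 peaks of the table lost more.

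Adgrg1 (GPR56) is an adhesion G protein-coupled receptor that is abundant on stem cells and binds matrix proteins. It had 3 peaks, more than any other name on the list. All 3 lie inside the gene, but for the last-intron peak and the larger intron 1 peak the nearest annotated start is that of Adgrg3. The peak near the end of the gene, in its last intron (chr8:95012213-95013108), had the highest level of the set, at 1928.69 and 1882.10 in Sin3B+/+ against 3025.92 and 3436 in Sin3B-/-. Its difference of 0.76 ± 0.20 matched the table's shift, at 0.01 after centring. In intron 1 the smaller peak (chr8:95000678-95000977) had 106.33 and 74.72 against 175.57 and 163, a difference of 0.92 ± 0.23 and 0.16 after centring. Its neighbour (chr8:95001502-95002335) averaged 396 in Sin3B+/+ and 626 in Sin3B-/-, a difference of 0.66 ± 0.21 and -0.09 after centring. None of the 3 was called after centring (adjusted p of 0.98, 0.58 and 0.66, limma). Leaving out 1 library gave 0.67 to 0.85, 0.66 to 1.17 and 0.54 to 0.78, as scaled and in the same order. Robo4, Epha2, Efnb1 and Efnb2 had no peak.

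**Figure D3:**
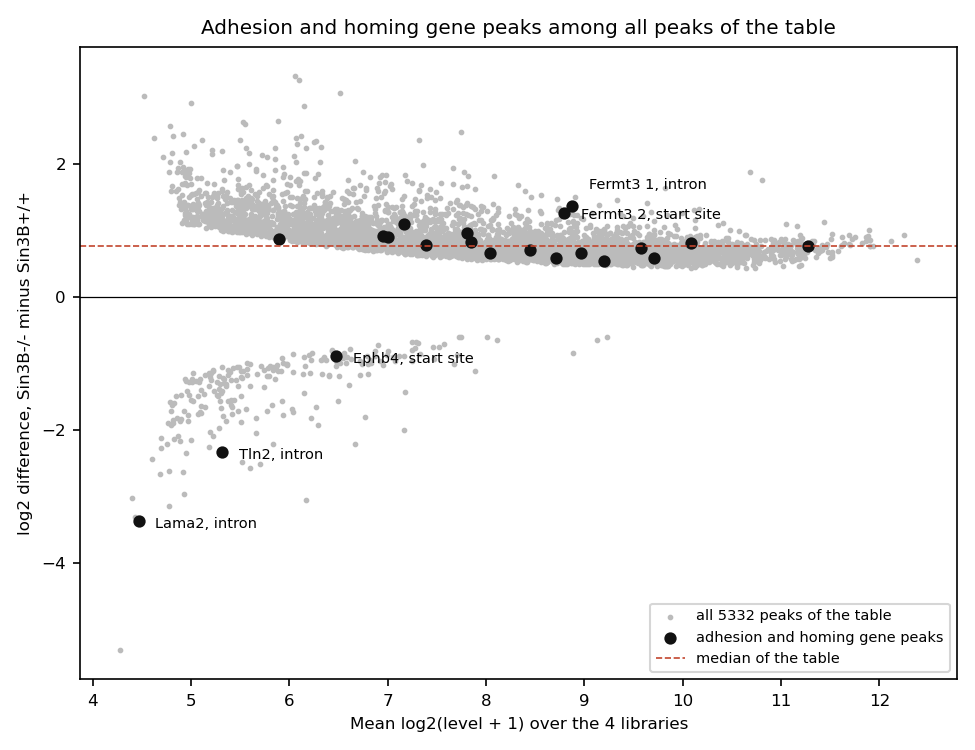
Mean log2(level + 1) over the 4 libraries (horizontal) and the difference Sin3B-/- minus Sin3B+/+ in log2 units (vertical) for all 5332 peaks of the table (grey) and the 21 peaks described here (black), with the table's median as a dashed line. The empty band around zero is the authors' selection. Lama2 and Tln2 sit at low levels with large losses, and the Fermt3 peaks sit above the dense band at their level.

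The integrin subunits had few peaks, with 2 of 10 alpha and 1 of 4 beta subunits listed. Itga4, Itgb7 and Itga5 build receptors for Vcam1, MAdCAM-1 and fibronectin, since the alpha 4 chain pairs with the beta 1 or beta 7 chain and the alpha 5 chain with beta 1. The Itga4 start peak (chr2:79254612-79255978) had 537.33 and 443.53 in Sin3B+/+ against 641.67 and 782 in Sin3B-/-. Its difference of 0.54 ± 0.20 (limma adjusted p = 0.0092) was the smallest gain of the set and became -0.22 after centring. The call was lost with a replicate block, and leaving out 1 library at a time gave 0.39 to 0.68. Itgb7, in intron 2 of 14 (chr15:102224453-102225843), had 671.26 and 517.57 against 964.07 and 1000, a difference of 0.74 ± 0.20, and -0.02 after centring. Leaving out 1 library at a time gave 0.55 to 0.92 at Itgb7.

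Itga5 had the largest gain outside Fermt3. The peak is in intron 1 of 29 (chr15:103362312-103362766), and its levels were 112.71 and 84.32 in Sin3B+/+ against 211.18 and 207 in Sin3B-/-. The Sin3B-/- libraries were close to each other and above both Sin3B+/+ libraries. The difference was 1.09 ± 0.22 (limma adjusted p = 6.0e-06), and 0.34 after centring (adjusted p = 0.16), so a gain beyond the shift was not shown. No peak was listed for Itga1, Itga2, Itga3, Itga6, Itga9, Itgal, Itgav, Itgax, Itgb1, Itgb2 or Itgb5. Among these are the laminin receptor chain Itga6, the common beta chain Itgb1 and both chains of LFA-1, Itgal and Itgb2.

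Of 7 counter-receptors and homing glycoproteins, 3 had peaks, and none stood apart from the shift. Cd44, which binds hyaluronan and carries selectin ligands, had a peak 42581 bases upstream of its start (chr2:102943987-102944505). Its levels were 182.08 and 139.50 in Sin3B+/+ against 281.79 and 340 in Sin3B-/-, and the difference was 0.95 ± 0.21 (limma adjusted p = 3.4e-05), or 0.20 after centring. No gene body covers this peak, and its link to Cd44 rests on the authors' naming and on Cd44 having the nearest start.

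Cd47 protects cells from being engulfed by macrophages and binds integrins on its own cell. Its start peak (chr16:49799685-49800669) had 876.16 and 768.47 against 1265.85 and 1626, a difference of 0.81 ± 0.20 and 0.05 after centring. The intron 4 peak (chr16:49839652-49840620) averaged 277 in Sin3B+/+ and 445 in Sin3B-/-, a difference of 0.71 ± 0.21 and -0.05 after centring. Icam2, a ligand of LFA-1, had a peak in a UTR exon, 169 bases from an internal transcript start (chr11:106382232-106382992). Levels there were 145.11 and 111.74 in Sin3B+/+ against 221.18 and 216 in Sin3B-/-, with a difference of 0.77 ± 0.22 and 0.02 after centring. Leaving out 1 library gave 0.62 to 0.99 at the Cd47 start, 0.43 to 0.98 in its intron and 0.59 to 0.96 at Icam2. Selplg, Vcam1, Icam1 and Pecam1 had no peak.

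Chemokine genes had peaks for 2 of 9 names. Cxcr2, the receptor for neutrophil-attracting chemokines, had a peak outside the gene, 19006 bases past its start (chr1:74172665-74173326). Levels were 88.07 and 98.03 in Sin3B+/+ against 162.45 and 186 in Sin3B-/-. The difference was 0.90 ± 0.22 (limma adjusted p = 0.00021), or 0.14 after centring (adjusted p = 0.63). Cxcr5, the receptor for Cxcl13 that leads B cells and helper T cells into follicles, had a peak 5980 bases upstream (chr9:44567435-44568280) and another in intron 2 of 3 (chr9:44537419-44538426). The upstream peak had 201.70 and 146.70 against 264.92 and 353, a difference of 0.83 ± 0.21 and 0.07 after centring. The intron peak averaged 210 in Sin3B+/+ and 330 in Sin3B-/-, a difference of 0.66 ± 0.21 and -0.09 after centring. Leaving out 1 library gave 0.80 to 0.99 at Cxcr2, 0.60 to 1.05 upstream of Cxcr5 and 0.45 to 0.87 in its intron.

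The best-known retention axis had no deposited differential peak. From the start of Cxcr4 the nearest peak of the table was 489190 bases away, and from that of Cxcl12 it was 263074 bases away. Ackr3, Ccr1, Ccr2, Ccr7 and Ccr9 had none either. The 3 S1P receptors had no peak of their own, with the nearest at 100661 bases for S1pr1, 20501 for S1pr2 and 3529 for S1pr4, each named for another gene. None of the 6 junctional adhesion molecules and cadherins (Jam2, Jam3, F11r, Cdh1, Cdh2 and Cdh5) was listed. For Vcam1 the distance was 259349 bases, for Itgb1 548696, for Itga6 356249, for Itgal 10849 and for Selplg 12275. Over the 38 gene symbols without a peak the median distance was 176419 bases, and 14 had a table peak within 100000 bases. The remaining name, Talin1, is no symbol in the annotation and refers to the protein of Tln1.

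The 21 peaks lay mostly in introns. There were 5 at a start site (23.8%, 95% Wilson interval 10.6 to 45.1%, from 1000 bases before to 100 after a start), 12 in introns, 3 intergenic and 1 in a UTR exon. The table had 33.3% at start sites, 37.0% in introns and 22.3% intergenic, and the interval for start sites includes the table's share. Median GC content was 53.6% in the set and 53.3% in the table, and median width was 781 and 685 bases. Of the central 300-base windows, 10 of 21 held the RUNX core TGTGGT (47.6%), against 28.0% of all table peaks. The windows with it were at Adgrg1, Cd44, Cd47, Cxcr5, Fermt3, Itga4, Lama2 and Tln2. The other motifs were near the table's share or rare: GATA in 5 (23.8% against 17.8%), SP/KLF in 7 (33.3% against 30.4%), the E-box in 2 (9.52% against 6.86%), and ETS in 1 (4.76% against 9.28%). AP-1 (TGANTCA, 10.4% of the table), CTCF (9.15%) and CHR (TTTGAA, 13.6%) were each in 1 window. Several windows belong to the same gene, so they are not independent, and no difference was tested.

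**Figure D4:**
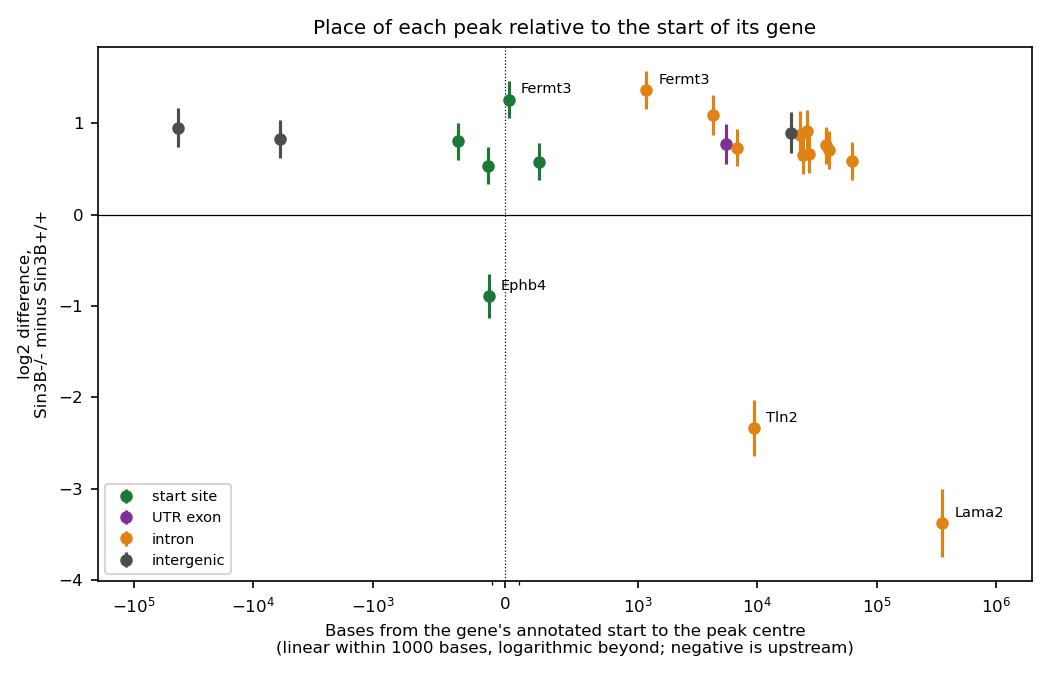
Distance in bases from the annotated start of the gene to the centre of each peak (horizontal, linear within 1000 bases and logarithmic beyond, negative values upstream) and the difference Sin3B-/- minus Sin3B+/+ in log2 units as scaled (vertical, bars are standard errors), coloured by place. The 3 losses lie at the Ephb4 start and in introns of Tln2 and Lama2, and 7 of the gains were smaller than the shift and fall below zero when libraries are centred.

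Other genes of the same pathways were read from 5 lists of 150 names that exclude the 55. Of these, 42 had 57 peaks, 52 higher and 5 lower as scaled (median 0.78), and 5 higher and 5 lower after centring. Of all peaks, 95.7% were called higher and 4.29% lower as scaled, and 7.84% and 4.82% after centring, and the lists are to be read against these shares. Integrin activation and adhesion signalling held 39 peaks from 28 of 69 names, all higher as scaled and 4 after centring, near the table's shares. Most of these 4 lay at Vav1, where reads of the gene and of the Cre transgene cannot be told apart. Laminins, ephrins and Eph receptors held 7 peaks from 5 of 30 names, with 4 of the 7 lower both ways and a median of -1.01. Integrin subunits had 3 peaks from 2 of 12 names, chemokine and S1P receptors 1 peak from 16 names, and selectins, cadherins and other adhesion proteins 7 peaks from 6 of 23 names with 1 lower.

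Epha5 and Epha4, like Ephb4 receptors of the ephrin system, were among the related genes that fell. The Epha5 start peak had 251.44 and 331.79 in Sin3B+/+ against 149.95 and 137 in Sin3B-/-, a difference of -1.01 ± 0.21 (limma adjusted p = 1.4e-05). Next to it, in an intron near the start, 46.77 and 59.64 compared with 18.12 and 7, a difference of -2.12 ± 0.35 (adjusted p = 3.6e-08). Epha4, in an intron, had 55.22 and 54.50 against 16.87 and 24 (-1.40 ± 0.32). Cdh11, a cadherin of mesenchymal cells, differed by -1.22 ± 0.29. These 4 peaks were also lower after centring, with differences of -2.87 to -1.76.

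The largest gains among the related genes were at Vav1 and Rapgef1, exchange factors that activate small GTPases, and at Cdc42, a small GTPase. The Vav1 intron peak (chr17:57290057-57291229) had 901.03 and 816.80 in Sin3B+/+ against 3039.04 and 3265 in Sin3B-/-, a difference of 1.88 ± 0.20 (limma adjusted p = 1.6e-17) and 1.12 after centring. The Cre transgene of the Sin3B-/- mice carries Vav1 regulatory sequence, and reads from it and from the gene itself cannot be told apart. Cdc42 (1.46 ± 0.29) and Rapgef1 (1.37 ± 0.29) rose from low levels, and neither was called after centring (adjusted p = 0.062 and 0.10, limma).

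Leaving out a library ended calls among the gains and none among the losses. Without Sin3B-/- replicate 2, which has the fewest inferred reads, 6 of the 18 gains were called, and 34.5% of all gains in the table kept their call. Without Sin3B-/- replicate 1 there were 13, and 65.0% over the table, while all 18 were called without either Sin3B+/+ library. The losses at Lama2, Tln2 and Ephb4 kept their direction in each of these fits, although their sizes moved as given above. An exact permutation test over the 4 libraries cannot give a two-sided p below 0.33, so the limma values rest on the spread shared by all peaks.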

How the data were processed

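ATAC-Seq was measured in 2 Sin3B+/+ and 2 Sin3B-/- LT-HSC libraries, grouped by the sample labels, with cells of 2 mice per library and 12 PCR cycles. Per the paper's methods and the submitters' processing notes, the authors checked reads with FastQC, trimmed them (Trimmomatic), aligned with bowtie2, removed duplicates with sambamba, called peaks with MACS2 and tested them with DiffBind and DESeq2. Versions are not given in the sources used here. The deposited values per library are a signal, reads per peak times 1 factor per library. They were whole multiples of a step in at least 99.96% of peaks (tolerance 0.0051). The authors' columns of log2 level, log2 fold change, p-value and FDR were not used. The processing notes name mm9, but 5330 of 5332 peaks had a gene ID of GENCODE M21 and 96.6% of gene positions were equal to it, so GRCm38 was used.

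limma (3.58.1, R 4.3.3; trend on) was fitted to log2(level + 1) over 5332 peaks, with no filter and an adjusted p threshold of 0.05. The prior degrees of freedom were effectively infinite, so all peaks share the spread at their level. The pseudocount understates changes of low peaks. On simulated levels for this comparison (5332 peaks), limma recovered 100% of 200 changed peaks (log2 difference of 2) and called 0.29% of the others. The simulation had no shift between libraries, and most peaks of the set differed by less than 2. These rates therefore do not carry over to the calls made here. A floor of 3 steps was a level of 0.684, 1.03, 1.87 and 3.0 in the libraries, and no peak of the set was below it. Intervals cover counting error only. Motif windows and sequences were read with pysam 0.24.0. All peaks of members were named, with library values for those lower, the 12 largest differences and 1 peak of every other member. Of the related genes, those that fell and the 3 largest gains were named, except 1 that is counted but not reported here. The genes and lists were chosen with earlier results of these data known. No batch is given in the labels. Alternatives were 2 other pseudocounts, a filter, centring, a replicate block, other peak-to-gene rules and start windows, another threshold and leaving out each library.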

Additional observations from a re-analysis of the deposited data

How the results depend on the processing

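The 3 losses kept their direction under every alternative fit that was run, and their calls held with other pseudocounts, centring and the replicate block. Centring enlarges a loss by construction. It kept 100% of all losses in the table, and the replicate block kept 99.6%, so this does not set the 3 apart. Without Sin3B-/- replicate 2 the number called higher moved from 18 to 6 (range over the libraries left out 6 to 18), the total called from 21 to 9 (range 9 to 21), and the related genes called higher from 52 to 23 (range 23 to 52). The range for the median difference was 0.59 to 0.87. These fits leave 1 library in a genotype, which is assumed to vary like the others. Their spread comes from the genotype that keeps 2 libraries, so a lost call does not measure support from the library left out. With centred libraries the counts were 2, 5 and 5, the median was 0.0064, and 7 gains smaller than the shift fell below zero, none of them called: Cxcr5 intron -0.0935, Itga4 -0.216, Itgb7 -0.0171, Cd47 intron -0.0457, Tln1 -0.169, Ptk2b -0.165 and the middle Adgrg1 peak -0.0889. Same-numbered libraries came from different mice, and their deviations correlated at -0.10 over peaks. The replicate block called 15 of the 18 gains, with adjusted p (limma) of 0.095 at Itga4, 0.064 at Ptk2b and 0.083 at Tln1, and it moved the table's counts from 5103 higher and 229 lower to 3836 and 228. Over the table, 1759 peaks were called higher without Sin3B-/- replicate 2, 3316 without Sin3B-/- replicate 1 and 418 with centred libraries. The crossed pairing, added after seeing the data, gave 5103 and 229. Both pseudocounts (0.5 and 5) and a threshold of 0.01 kept all 21 calls, and a minimum mean level of 20 removed no peak, since the smallest mean was 31.75. Naming peaks by the nearest start or by gene body gave 19 peaks and 15 names each, and a narrower and a wider start window put 28.6% and 33.3% of peaks at starts, in that order. The planned count tests were not run, because the values are scaled levels and not counts. Depth limits the Lama2 and Tln2 values most, and the peaks that the authors tested without a call were not analysed here.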

Other observations

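Vav1 had 4 table peaks, and the values of the other 3 were looked at after the intron peak was seen. The peak 2178 bases before the start had levels of 172.49 and 140.88 in Sin3B+/+ and 356.14 and 383 in Sin3B-/- (1.24 ± 0.21, and 0.49 after centring, limma adjusted p = 0.0034). The start peak had 176.14 and 132.99 against 352.39 and 448 (1.37 ± 0.21, and 0.62 after centring, adjusted p = 5.3e-05). The Vav1 peak beyond the gene, nearest to the start of Adgre1, had 51.79 and 42.16 against 102.47 and 79 (0.93 ± 0.26) and was not called after centring (0.18, adjusted p = 0.66). The ends of the Cre construct are not given in the sources used here, so transgene and gene cannot be told apart at any of these peaks.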
